A study of Mus musculus with 6 samples.

Results

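The adipocyte genes described here are 10 genes that mark fat cells, Adipoq, Lep, Retn, Cfd, Fabp4, Plin1, Plin4, Cidec, Lpl and Pparg. They were taken by symbol from count tables of 54232 mouse genes, as a check for fat tissue in tumor samples, and all 10 were found. The study sequenced RNA from tumors of mice labelled NIC+. NIC is known as a transgene in which the MMTV promoter, active in mammary epithelial cells, makes Cre and an active form of Neu (ErbB2) from 1 transcript, so both groups carry the oncogene and Cre. There were 3 libraries from CdGAP wt/wt tumors (wt1, wt2 and wt3) and 3 from CdGAP fx/fx tumors (fx1, fx2 and fx3). CdGAP is the product of Arhgap31, and the labels do not spell out fx. Age and the number of animals behind the libraries are not given in the sources used here. The spread that p-values are set against is that of these libraries, which may not be that between animals. Where Cre acted in these tumors was not tested. Fat cells are part of the mammary gland's normal stroma, the mammary fat pad.

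Fat cells store triglyceride in one large lipid droplet, take up fatty acids that are released from lipoproteins in the capillaries, and secrete hormones called adipokines. The nuclear receptor PPAR gamma (Pparg), paired with RXR, and the C/EBP factors switch on the genes of this program during differentiation. Some of these genes are close to specific for fat cells, while others are also used by macrophages, endothelium, muscle or milk-producing epithelium.

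Libraries held between 36732137 (fx2) and 53606276 (fx1) counts of read pairs, so that a gene at 0 counts could still lie at up to 3 counts, or between 0.056 and 0.0817 counts per 1000000 (CPM), by counting error only. Levels below are CPM scaled by TMM, a correction for differences in library composition, and are given in the order wt1, wt2, wt3 and then fx1, fx2, fx3. Arhgap31 measured 664, 432 and 549.5 CPM in wt/wt and 155, 44.1 and 115 CPM in fx/fx, lower in each fx/fx library than in each wt/wt library (edgeR adjusted p = 0.153). Epcam, an epithelial adhesion molecule picked after its values were seen to check the labelled tissue, measured between 1542 and 2176 CPM in all 6 libraries.

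Because PPAR gamma and the C/EBP factors switch on the fat cell program, the sequence before the members' start sites was read first. Whether this sequence bears on the levels in these tumors was not tested. RefSeq start sites on GRCm38.p6 were at hand for 8 of the 10 members, 11 start sites in all, and 250 bases before each were searched on both strands. The C/EBP palindrome TTGCGCAA was found before Lep alone, 55 bases before its start, and in 0.164% of the 32851 windows of all genes. A looser form of it, TTGCNNAA, which includes the palindrome, was found before Lep, Plin1, Cidec and Pparg, in 4 of the 11 member windows against 9.56% of all windows. DR1, the element that PPAR gamma and RXR bind, is a direct repeat of AGGTCA with 1 base between. It was found in 0 of the 11 member windows and in 0.0335% of all windows, and AGGTCA alone in 2 (both Pparg) and in 14.0%. A match is only a match of letters, and no match says nothing of binding elsewhere. The stretches of 100 bases that hold matches before Lep (chr6:29060120-29060219, plus strand), Plin1 (chr7:79732927-79733026, minus strand) and the third RefSeq start of Pparg (chr6:115421966-115422065, plus strand) are shown 5′ to 3′ because these members stand for the adipokines, the droplet proteins and the regulator. They overlap no GENCODE exon, and capitals mark TTGCNNAA on either strand.
Lep: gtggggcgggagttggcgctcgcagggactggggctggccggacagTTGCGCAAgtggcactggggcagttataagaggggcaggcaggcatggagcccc
Plin1: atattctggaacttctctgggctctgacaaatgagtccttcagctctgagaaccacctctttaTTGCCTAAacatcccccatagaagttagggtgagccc
Pparg: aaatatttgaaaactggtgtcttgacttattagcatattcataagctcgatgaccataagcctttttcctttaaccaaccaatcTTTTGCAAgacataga

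All 10 adipocyte genes had a higher mean in fx/fx than in wt/wt tumors, by between 1.91-fold (Pparg) and 8.65-fold (Retn), where 49.6% of the 16752 genes tested had a log2 fold change above 0. For Adipoq, Lep, Plin1, Plin4 and Cidec the wt/wt libraries spanned more fold than lay between the means of the genotypes. The wt/wt span of Retn has no upper bound, since wt3 held 0 counts. In fx2 each of the 10 genes was at its highest of the 6 libraries, where fx2 was the highest library for 14.6% of the genes tested. In wt1, 9 of the 10 were at their highest of the wt/wt libraries, against 24.0% of genes tested, and Pparg was the exception. Both held for 5.17% of genes tested. The summed level of the 10 genes was 82.3, 32.1 and 39.2 CPM in wt/wt and 110.9, 326 and 135 CPM in fx/fx. Most of this sum came from Fabp4 and Lpl, which other cell types also make (14.0 and 12.9 CPM in wt2). By this sum wt1 lay closer to fx1 than to the other wt/wt libraries. In bulk tumor RNA, more fat cells in a sample and more of each RNA per fat cell cannot be told apart.

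**Figure D1:**
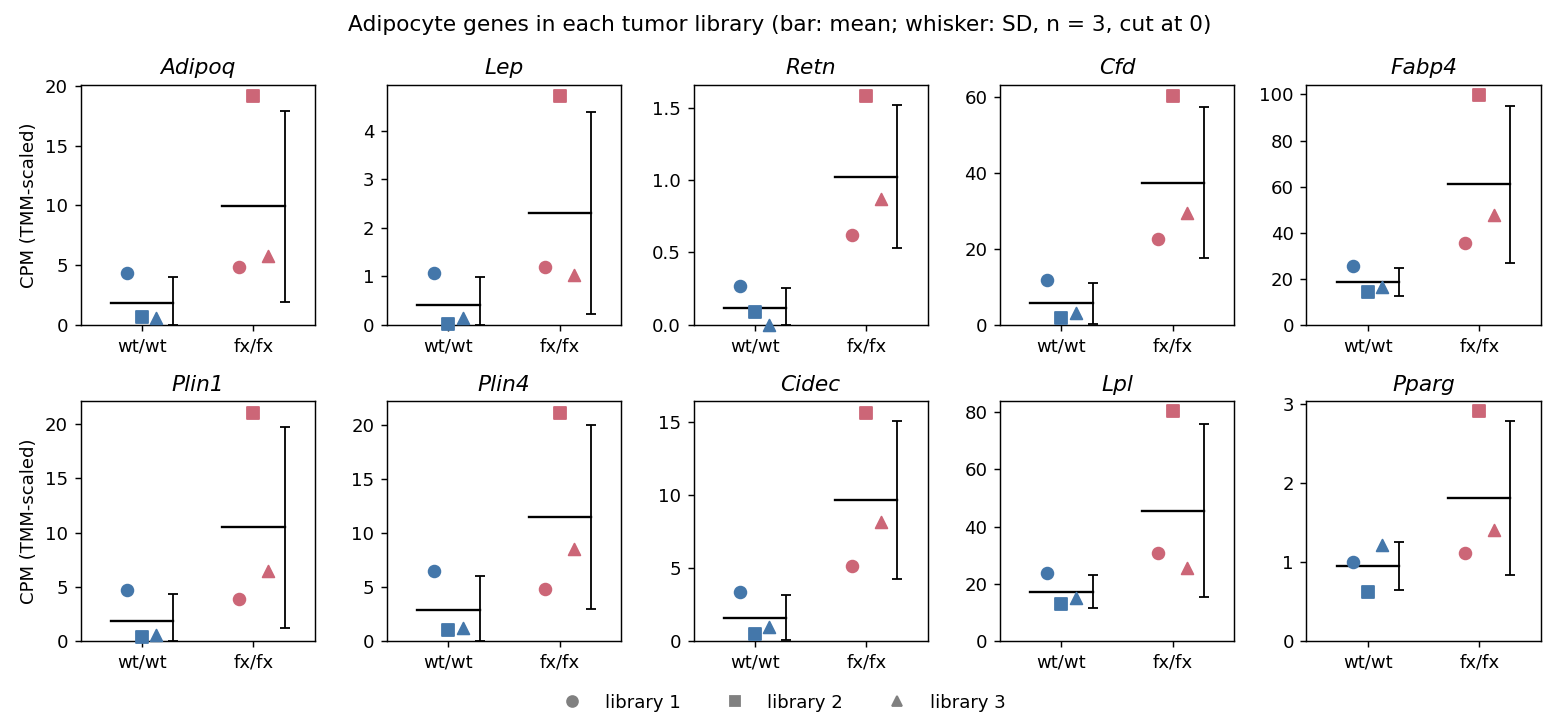
TMM-scaled CPM (vertical axes, linear, each with its own range) of the 10 adipocyte genes in the 3 wt/wt (blue) and 3 fx/fx (red) libraries, with marker shapes for the library number, a bar for the mean and a whisker for the SD (n = 3). In each panel fx2 (red square) is the highest point, and in 9 of the 10 panels wt1 (blue circle) is the highest wt/wt point.

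Of the secreted products, Adipoq (ENSMUSG00000022878, chromosome 16, 23146536 to 23158028, plus strand, GRCm38) encodes adiponectin, a hormone made almost only by fat cells that improves insulin sensitivity. It measured 4.34, 0.625 and 0.589 CPM in wt/wt and 4.83, 19.1 and 5.79 CPM in fx/fx. The genotypes did not overlap, but the highest wt/wt library stood just under the lowest fx/fx library, and the 3 wt/wt libraries spanned 7.37-fold. Mean levels of 1.85 ± 2.16 and 9.92 ± 7.99 CPM (SD, n = 3 in each genotype) gave a log2 fold change of 2.42 (SE 0.93, edgeR adjusted p = 0.311). Without wt1 the log2 fold change was 4.02, and without fx2 it was 1.52.

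Lep (chromosome 6, 29060220 to 29073877, plus strand) encodes leptin, the satiety hormone that reports fat stores to the brain. Its counts were 48, 1 and 6 in wt/wt and 63, 176 and 42 in fx/fx, or 1.06, 0.0223 and 0.131 against 1.19, 4.71 and 1.02 CPM. Here wt1 lay above fx3, so the genotypes overlapped, and wt2 held a single count. Leptin RNA was thus seen in 5 libraries by more than 1 read pair, with a log2 fold change of 2.49 (SE 1.17, edgeR adjusted p = 0.392).

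Retn (chromosome 8, 3655770 to 3660110, plus strand) encodes resistin, which in mice is a fat cell hormone. It had the fewest counts of the members, 12, 4 and 0 counts in wt/wt and 33, 59 and 36 in fx/fx. Each fx/fx library was above each wt/wt library, at 0.621, 1.58 and 0.873 CPM against 0.266, 0.0893 and 0 CPM, where 0 in wt3 allows up to 0.0646 CPM. The log2 fold change of 3.08 (SE 0.93, edgeR adjusted p = 0.231) rests on these low counts. Of the other resistin-like genes, Retnlb was at 0 in all libraries, and Retnla, made by alternatively activated macrophages as well as by fat tissue, measured 1.83 ± 0.727 against 4.29 ± 2.22 CPM (n = 3 each).

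Cfd (chromosome 10, 79890853 to 79892655, plus strand) encodes adipsin, complement factor D, the protease that starts the alternative complement pathway and that fat cells secrete in large amounts. It measured 11.9, 1.83 and 3.16 CPM in wt/wt and 22.7, 60.1 and 29.4 CPM in fx/fx, with no overlap. Mean levels were 5.62 ± 5.45 and 37.4 ± 19.9 CPM (n = 3 in each genotype). The log2 fold change of 2.73 (SE 0.74) had an adjusted p of 0.212 with edgeR and 0.00321 with DESeq2. Adipsin was the one member whose DESeq2 call held with any single library left out, the largest adjusted p then being 0.0417. Among 8 other genes of the pathway, 6 were higher and 2 lower in fx/fx, and 2 of the higher ones had an unadjusted edgeR p under 0.05, as 8.18% of all genes tested did. C3, the protein that the pathway cleaves, had the smallest p and measured 14.9 ± 5.41 against 39.8 ± 12.1 CPM (n = 3 each, edgeR adjusted p = 0.185). Cfp, properdin, measured 4.87 ± 1.92 against 9.40 ± 3.76 CPM.

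Fabp4 (chromosome 3, 10204088 to 10208576, minus strand) encodes aP2, the fatty acid carrier of fat cells, which macrophages and capillary endothelium also make. It measured 25.5, 14.0 and 16.4 CPM in wt/wt and 35.7, 99.8 and 47.5 CPM in fx/fx. The genotypes did not overlap and the wt/wt libraries spanned only 1.82-fold. The log2 fold change was 1.71 (SE 0.42), with the smallest p of the 10 members (edgeR adjusted p = 0.185, DESeq2 adjusted p = 0.00808). Of the 8 other family members, Fabp2 and Fabp12 were at 0 in all libraries and only Fabp5, the epidermal form, which tumor epithelium and macrophages can make, had enough counts to be tested. Fabp5 measured 21.8 ± 8.30 against 43.1 ± 8.40 CPM (n = 3 each, edgeR adjusted p = 0.243) and was highest in fx3, not in fx2.

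Plin1 (chromosome 7, 79720218 to 79732903, minus strand) encodes perilipin 1, the coat protein that guards the droplet of fat cells against lipases. Its levels were 4.67, 0.402 and 0.611 CPM in wt/wt and 3.93, 21.0 and 6.47 CPM in fx/fx. The wt1 library lay above fx1, and the wt/wt libraries spanned 11.6-fold, more than the 5.53-fold between the means of the genotypes (log2 fold change 2.46, SE 1.06, edgeR adjusted p = 0.353). Plin4 (chromosome 17, 56100591 to 56109803, minus strand), a perilipin of small and growing droplets, showed the same order of libraries. It measured 6.51, 1.05 and 1.22 CPM against 4.85, 21.1 and 8.51 CPM, again with wt1 above fx1 (log2 fold change 1.97, SE 0.85, edgeR adjusted p = 0.353).

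Cidec (chromosome 6, 113424634 to 113435760, minus strand) encodes the mouse FSP27 protein, which fuses droplets into the large single droplet of white fat. It measured 3.37, 0.469 and 0.982 CPM in wt/wt and 5.14, 15.7 and 8.17 CPM in fx/fx, with no overlap. Its log2 fold change was 2.59 (SE 0.77), with an adjusted p of 0.228 in edgeR and 0.0107 in DESeq2. Other genes of these families gave other values. Plin2, the perilipin of most lipid-storing cells and of milk fat, measured 207 ± 37.1 against 147 ± 38.6 CPM (n = 3 each, edgeR adjusted p = 0.408). Plin3, present in nearly all cells, had a log2 fold change of -0.02 (SE 0.20). Cidea, a relative of Cidec found in brown fat and in lactating epithelium, measured 0.221, 1.54 and 1.46 CPM against 9.20, 2.70 and 4.95 CPM, being highest in fx1 and lowest in wt1 (edgeR adjusted p = 0.243, DESeq2 adjusted p = 0.0212).

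Lpl (chromosome 8, 68880491 to 68907448, plus strand) encodes lipoprotein lipase, which frees fatty acids from circulating triglyceride and is made by fat, muscle, macrophages and lactating epithelium. It measured 23.7, 12.9 and 14.9 CPM in wt/wt and 30.9, 80.2 and 25.5 CPM in fx/fx. The genotypes did not overlap, yet wt1 and fx3 were close to each other (2.65-fold between the means, edgeR adjusted p = 0.257), and without fx2 the log2 fold change was 0.71. Of 15 other genes of the lipase system, 10 had enough counts to be tested, and 8 were higher and 2 lower in fx/fx. Of the higher ones, 4 had an unadjusted edgeR p under 0.05, where 8.18% of all genes tested were higher at such a p. Apoc2, the cofactor of the lipase, was at 0 in all libraries. Cd36, the fatty acid uptake receptor, measured 14.0, 8.93 and 18.6 CPM against 19.9, 69.3 and 27.0 CPM. Vldlr, a receptor for lipoproteins, had a log2 fold change of 0.78 (SE 0.29, edgeR adjusted p = 0.295) and was highest in fx1.

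Pparg (chromosome 6, 115360951 to 115490399, plus strand), the regulator itself, had the smallest difference of the 10. It measured 0.997, 0.625 and 1.22 CPM in wt/wt and 1.11, 2.92 and 1.41 CPM in fx/fx, with overlap (log2 fold change 0.93, SE 0.50, edgeR adjusted p = 0.448). Without fx2 this was 0.41. Counts were summed over the gene, so the fat cell isoform was not separated from the others. Among 19 other nuclear receptors and regulators of the program, 11 were higher and 8 lower, with a median log2 fold change of 0.02. At an unadjusted edgeR p under 0.05, 2 of the 19 were higher and 1 was lower, shares close to the 8.18% and 6.04% of all genes tested. Ebf1, an early factor of the fat lineage that B cells and pericytes also use, measured 2.60 ± 0.322 against 5.82 ± 2.06 CPM, and Ppard 58.9 ± 2.96 against 78.5 ± 6.62 CPM (n = 3 each, edgeR adjusted p = 0.249 and 0.300). Srebf1, the regulator of fatty acid synthesis, was lower, with a log2 fold change of -1.21 (SE 0.47, edgeR adjusted p = 0.311) and an overlap between the genotypes. Rxra, a partner of PPAR gamma chosen after its values were seen, differed by 0.02 (SE 0.22) on the log2 scale.

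Across the 10 members the tests gave the following. At an edgeR adjusted p under 0.05, 0 of 10 passed, where 0.0% of the 16752 genes tested did (0 genes, with 2381 at an unadjusted p under 0.05). The adjusted p of the members lay between 0.185 and 0.448. At an unadjusted edgeR p under 0.05, 6 of 10 were higher in fx/fx, where 8.18% of genes tested were higher. These were Fabp4, Cfd, Cidec, Retn, Lpl and Adipoq, and the same 6 were the members with no overlap between the genotypes, a pattern held by 9.74% of genes tested (9.93% for the opposite order, which 0 members had). DESeq2 called 4 of 10 higher (Cfd, Fabp4, Cidec and Retn), against 3.01% of genes tested, and 0 lower, against 1.95%. With low-count genes kept, edgeR called 0 members, against 0.129% of genes. limma-voom called 0, with 9 members at an unadjusted p under 0.05, where 7.53% of genes tested were at such a p and higher. The median log2 fold change was 2.44 over the 10 members and -0.0043 over all genes tested. The exact 2-sided permutation test over the 20 orderings of the libraries gave p = 0.1, the smallest that 3 against 3 allow, for the 6 members with no overlap, and p = 0.2 for the other 4.

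**Figure D2:**
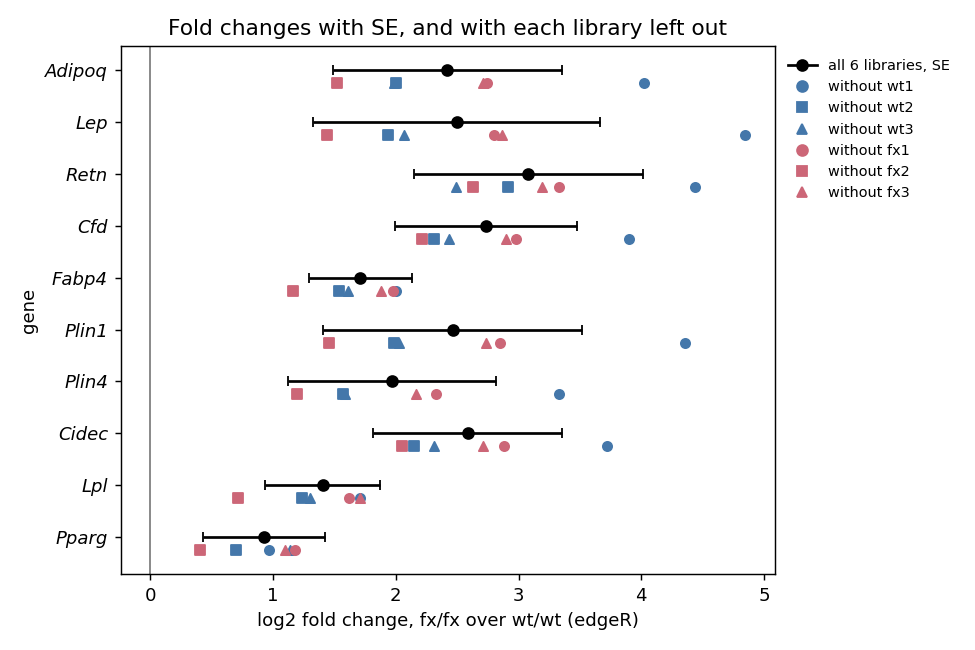
Log2 fold change of fx/fx over wt/wt from edgeR (horizontal axis) for each adipocyte gene, with the SE around the value from all 6 libraries (black) and the value with 1 library left out (blue for wt/wt, red for fx/fx). Values stay above 0 throughout, from 0.41 (Pparg without fx2) to 4.85 (Lep without wt1). Leaving out fx2 gave the lowest value for each gene other than Retn, whose lowest, 2.49, came without wt3.

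The size of the difference depended on single libraries. Without wt1, the median log2 fold change of the 10 members was 3.81 and DESeq2 called 8 of them, where 1.5% of all genes then tested were called higher. Leaving out wt3 left Cfd as the only DESeq2 call among them (2.18% of all genes were then called higher). Without wt2, fx1, fx2 or fx3, DESeq2 called 2, 3, 2 and 4 members, where 2.36%, 1.69%, 4.36% and 3.55% of all genes were called higher. The DESeq2 call of Fabp4 was lost without wt2 or wt3 (smallest adjusted p = 0.0686), that of Cidec without wt3 or fx2 (0.0864) and that of Retn in 5 of the 6 cases, all but that without wt1 (0.0702).

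The members kept to fixed proportions of each other to different degrees. Plin1 had between 0.643 and 1.12 counts for each count of Adipoq in the 6 libraries, although Adipoq itself spanned 32.5-fold. Plin4 had between 1.00 and 2.07, Cidec between 0.75 and 1.67 and Cfd between 2.74 and 5.37. For these 4 genes the highest ratio was between 1.74 and 2.22 times the lowest. Fabp4 had 5.88, 22.4 and 27.8 counts for each count of Adipoq in wt/wt and 7.38, 5.21 and 8.20 in fx/fx. The ratio for Lpl was 5.46, 20.7 and 25.4 in wt/wt and 6.39, 4.19 and 4.41 in fx/fx, and that for Pparg ran from 0.152 in fx2 to 2.07 in wt3. Fabp4, Lpl and Pparg thus had their highest ratios in wt2 and wt3, the libraries with the least Adipoq, and so spanned fewer fold overall (7.12, 6.20 and 4.67) than Adipoq. Plin4 too had its highest ratios in wt3 and wt2, at 2.07 and 1.68, within its narrower range. The ratios for Lep and Retn, which had fewer counts, ran from 0.0357 to 0.246 and from 0 to 0.151. Ratios of low counts are imprecise, since wt2 and wt3 held 28 and 27 counts of Adipoq.

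**Figure D3:**
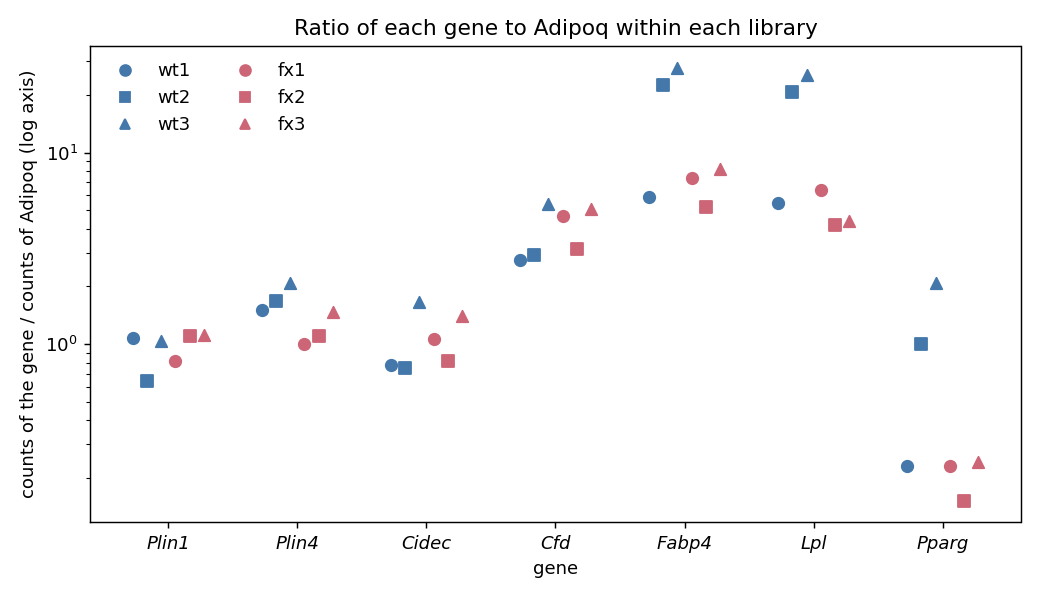
Counts of 7 adipocyte genes divided by the counts of Adipoq in the same library (vertical axis, log scale), for wt/wt (blue) and fx/fx (red) libraries. Points of Plin1, Plin4, Cidec and Cfd lie within about 2.2 times of each other. Those of Fabp4, Lpl and Pparg spread further and, like those of Plin4, stand highest in wt2 and wt3.

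Per length, in TPM computed from the counts and the exon lengths of the count files, Cfd had the highest mean of the members. It had 19.98 ± 19.1 in wt/wt and 135 ± 74.5 in fx/fx. Fabp4 followed with 13.7 ± 4.20 and 45.4 ± 26.2 TPM, and Adipoq had 4.40 ± 5.06 and 24.1 ± 19.8 TPM (SD, n = 3 each). In wt2 and wt3 the order of the first pair was reversed, with Fabp4 above Cfd, at 10.9 and 11.8 against 6.90 and 11.1 TPM. The length used for Fabp4, 4489 bases, is that of its whole gene, from 10204088 to 10208576. Shorter transcripts would raise its TPM, so its rank against Cfd depends on this length. Pparg, Retn and Lep had the lowest means in each genotype, with fx/fx means between 2.05 and 2.31 TPM that differed by less than their SDs of 1.13, 1.08 and 2.13. This order did not hold in wt2 and wt3 either, where Pparg, at 0.736 and 1.34 TPM, stood above Plin1 (0.300 and 0.424 TPM) and Plin4 (0.631 and 0.683 TPM).

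Of 28 other names listed for mature fat cells, 26 were matched to a gene and all 26 had enough counts to be tested. The list gave 18 higher and 8 lower in fx/fx, with a median log2 fold change of 1.06. At an unadjusted edgeR p under 0.05, 8 genes were higher and 2 lower, and 0 passed after adjustment. At such a p, 8.18% of all genes tested were higher and 6.04% lower. Trarg1, a regulator of glucose transporter traffic in fat cells, measured 1.38 ± 0.381 against 4.02 ± 2.20 CPM (n = 3 each, edgeR adjusted p = 0.240). Car3, the carbonic anhydrase of fat and muscle, measured 30.3, 4.15 and 6.07 CPM against 38.3, 156 and 57.3 CPM. Adig, adipogenin, was lower in each fx/fx library, at 16.5, 7.86 and 9.60 CPM against 2.22, 5.11 and 5.75 CPM (edgeR adjusted p = 0.256).

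The list fell into patterns that the heat map of fat-cell genes by library shows, and the genes named next were chosen after their values were seen. Pck1, an enzyme of glycerol synthesis in fat cells, and Adrb3, their beta-3 adrenergic receptor, varied as the members did, with 30.2 and 3.21 CPM in fx2 against 4.94 and 0.620 CPM in wt1. Pnpla2 and Lipe, the lipases that break down stored fat, were present at 204 ± 32.7 and 20.8 ± 4.35 CPM in wt/wt and at 191 ± 19.6 and 26.2 ± 8.42 CPM in fx/fx (edgeR adjusted p = 0.863 and 0.653). G0s2, an inhibitor of the first lipase, and Gpd1, an enzyme of glycerol 3-phosphate synthesis, had log2 fold changes of -0.74 (SE 0.46) and -0.67 (SE 0.25). G0s2 overlapped between the genotypes, while Gpd1 was lower in each fx/fx library (edgeR adjusted p = 0.512 and 0.295). Gpd1 and Adig were the 2 genes of the list that were lower at an unadjusted edgeR p under 0.05. The second group of genes was abundant in libraries where Adipoq was below 1 CPM.

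**Figure D4:**
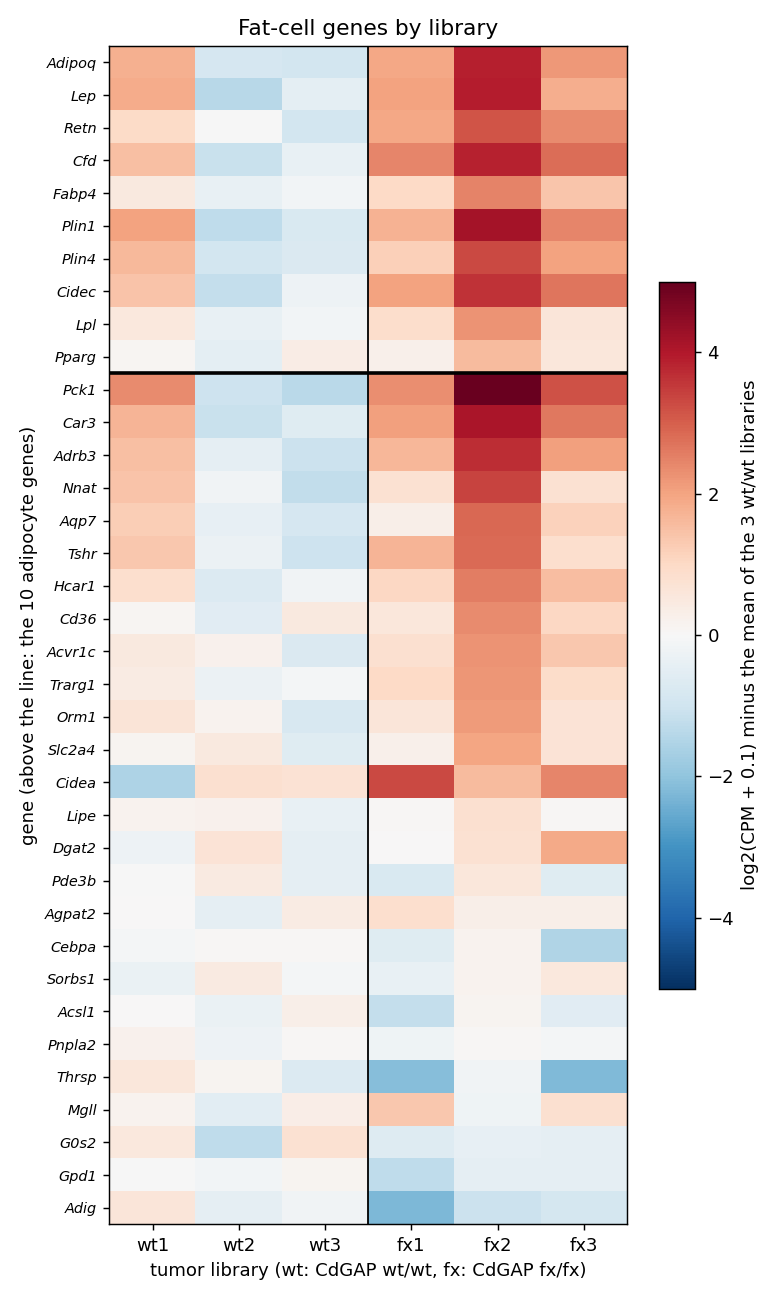
Log2(CPM + 0.1) minus the mean of the 3 wt/wt libraries (colour) for the 10 adipocyte genes (above the line) and 26 other genes of mature fat cells (below, sorted by their value in fx2), in 6 libraries (columns). Red in wt1, fx1, fx2 and fx3, deepest in fx2, runs through most members and down to about Hcar1 below the line, and the genes at the bottom are pale or blue in fx/fx.

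Genes whose profile over the 6 libraries was most like the members' were ranked by the root mean square difference of centred log2 CPM, over 12376 protein-coding genes with a mean of at least 1 CPM. Sncg, gamma-synuclein, came first with a difference of 0.20 log2 units, and measured 2.19, 0.335 and 0.677 CPM in wt/wt and 2.75, 8.99 and 2.81 CPM in fx/fx. Car3 was next at 0.37. Then came Rarres2, which encodes the adipokine chemerin (0.56), Clec10a, a lectin of macrophages and dendritic cells (0.56), Cd209f, Tnxb, a matrix protein (0.58), and Hp, haptoglobin (0.58). Tmem45b, Svep1 and Gdf10 completed the 10 closest, at 0.61 or less. The likeness is a description over 6 libraries and says nothing of shared function.

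Brown and beige fat genes had 9 of 12 members with enough counts to be tested, 7 higher and 2 lower. At an unadjusted edgeR p under 0.05, 3 were higher, Cidea among them, where 8.18% of all genes tested were. Kcnk3, a potassium channel, measured 0.244, 0.156 and 0.0218 CPM in wt/wt and 0.470, 1.23 and 0.800 CPM in fx/fx, and Dio2, which activates thyroid hormone, measured 0.965 ± 0.315 against 2.10 ± 0.749 CPM (n = 3 each, edgeR adjusted p = 0.220 and 0.308). Adipocyte progenitor genes other than Pparg and Fabp4 gave 7 higher and 3 lower of 10. Pi16 and Cd34, surface markers of stromal progenitors, had log2 fold changes of 1.07 (SE 0.34) and 0.65 (SE 0.27), and Dpp4 was lower in each fx/fx library, at 54.9 ± 12.3 against 16.9 ± 7.39 CPM (edgeR adjusted p = 0.182, DESeq2 adjusted p = 0.00206). Receptors for the adipokines gave 4 higher and 2 lower of 6, with 0 at an unadjusted edgeR p under 0.05. Lepr, the leptin receptor, measured 0.842, 1.495 and 1.03 CPM against 3.48, 4.82 and 0.873 CPM, and Cdh13 and Cap1, which bind adiponectin and resistin, had edgeR adjusted p of 0.455 and 0.556.

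Markers of other cell types were measured in the same libraries. The 10 fibroblast markers summed to between 306 and 528 CPM in wt/wt and between 825 and 1500 CPM in fx/fx. At an unadjusted edgeR p under 0.05, 9 of 10 were higher, where 8.18% of all genes tested were. Their sum was highest in fx2, as for the members. Mfap5, Col3a1 and Dcn, matrix proteins, had the smallest p, with log2 fold changes of 1.53, 1.59 and 2.00 (SE 0.26, 0.27 and 0.41). The 10 endothelial markers summed to between 111 and 139 CPM in wt/wt and between 129 and 257 CPM in fx/fx, with 4 of 10 at such a p, led by Cdh5, Cldn5 and Pecam1, and were highest in fx1. The 10 macrophage markers summed to between 485 and 576 CPM in wt/wt and between 315 and 738 CPM in fx/fx, highest in fx2 and lowest in fx3, and 2 of 10 were at such a p (Cd163 and Mrc1). Red blood cell genes summed to between 118 and 296 CPM in wt/wt and between 534 and 627 CPM in fx/fx, led by Hba-a1 (log2 fold change 1.66, SE 0.34), and were lowest in wt1, where the members were at their highest of wt/wt.

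Skeletal muscle, which lies under the mammary fat pads, was checked as well. Its 10 markers summed to 3.96, 12.9 and 4.17 CPM in wt/wt and 1.71, 49.5 and 1.45 CPM in fx/fx, and 3 of 10 had enough counts to be tested (Tnni2, Mylpf and Ckm), with 0 at an unadjusted edgeR p under 0.05. Acta1, skeletal muscle actin, and Myh4, a fast myosin heavy chain, chosen after their values were seen, measured 13.4 and 8.94 CPM in fx2 and 1.74 and 0.536 CPM or less elsewhere. Ckm, muscle creatine kinase, was instead highest in wt2, at 2.06, 7.57 and 3.27 CPM in wt/wt and 0.640, 6.32 and 0.170 CPM in fx/fx. The fx2 library was thus highest in the muscle sum and in 2 of the 3 tested muscle genes. It was the highest library for 14.6% of all genes tested. The 7 muscle genes with too few counts in most libraries to be tested were each highest in fx2 as well. The wt2 library, next in the muscle sum, was lowest in 8 of the 10 adipocyte genes. B cell markers, as a sign of lymph node, summed to at most 0.776 CPM in any library. Luminal epithelial markers summed to between 4030 and 4804 CPM in wt/wt and between 3963 and 5456 CPM in fx/fx. Of these, 1 of 8 (Krt19) was higher at an unadjusted edgeR p under 0.05, where 8.18% of all genes tested were. The part that tissue composition or dissection plays in the adipocyte values was not tested.

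**Figure D5:**
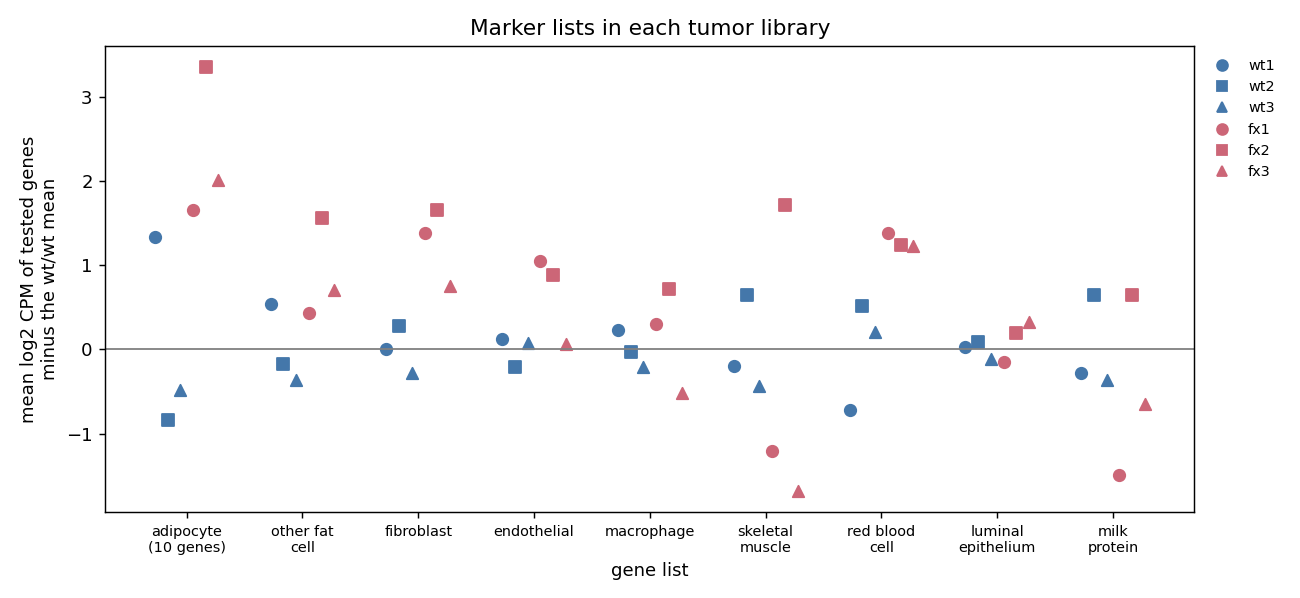
Mean log2 CPM of the tested genes of 9 lists minus the wt/wt mean (vertical axis) in each wt/wt (blue) and fx/fx (red) library. The adipocyte list runs from -0.84 in wt2 to 3.35 in fx2, and separates the genotypes narrowly, with wt1 at 1.33 and fx1 at 1.66. The fibroblast and red blood cell lists separate the genotypes as well. The skeletal muscle list is high in fx2 (1.71) and low in fx1 and fx3.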

How the data were processed

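RNA was measured in 6 tumor libraries grouped by the genotype in their labels. Per the file headers, the authors deposited raw counts of read pairs per gene made with featureCounts 1.6.0 on Ensembl release 93 of GRCm38, with both ends aligned, chimeric pairs left out and strand option 2. The submitters' processing notes name STAR 2.5.1b and featureCounts 1.4.6. GENCODE M21 gave symbols for 54165 of 54232 identifiers, and 0 rows named no gene.

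Genotypes were compared over all genes with edgeR 4.0.16 in R 4.3.3 (filterByExpr, TMM, robust quasi-likelihood test, 2-sided, Benjamini-Hochberg adjustment, threshold 0.05). Fold changes are fx/fx over wt/wt. The SE of an edgeR log2 fold change was derived from the test, as its absolute value divided by the square root of the quasi-likelihood F statistic. DESeq2 1.42.0, limma-voom (limma 3.58.1), other scalings, no low-count filter, a replicate block and leaving out each library were alternatives. Log2 CPM used a prior count of 2. Steps were tested on simulated data. Replicate libraries differed by far more than sampling noise.

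The members and lists were chosen with earlier results of these data known. Named genes were the 10 members, up to 3 genes with the smallest p from each other list, genes at 0 that define a list, and the 10 genes closest in profile, leaving out predicted genes. Some genes that this rule names are not reported here. Schwann cell, milk and keratinocyte lists were also measured. Promoter sequences are from RefSeq (GRCm38.p6).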

Additional observations from a re-analysis of the deposited data

How the results depend on the processing

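The median log2 fold change of the adipocyte members was 2.44 with all libraries and ran from 1.45 to 3.81 with 1 library left out, the highest value coming without wt1. DESeq2 called 831 genes and 4 members, where edgeR called 0 of each; edgeR called 38 genes but 0 members without the filter on low counts. Leaving out 1 library, edgeR called between 0 and 2 genes, the 2 without fx2, and DESeq2 called between 1 and 8 members (a combination added after the data were seen). DESeq2 then called 406, 622 and 558 genes without wt1, wt2 and wt3, and 528, 1738 and 864 genes without fx1, fx2 and fx3. The count of members higher at an unadjusted edgeR p under 0.05 was 6 with all libraries, where 8.18% of genes tested were higher. It ran from 4 to 9 with 1 library left out. The share of all genes at such a p in those fits is not given here, so these counts have no background beside them. No member changed direction under any alternative run. Same-numbered libraries did not deviate together (r across genes of -0.085, -0.0946 and 0.0569), and 0 of 6 libraries were most like their own number. With the replicate block, 0 genes and 0 members were called and 6 members were at an unadjusted p under 0.05, the number found without the block, with 2081 genes at such a p. Depth limits Retn and Lep, whose wt/wt counts were 12 or less in 3 and 2 libraries.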

Other observations

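Lists outside the comparisons above gave these values. Ucp1, the uncoupling protein that defines brown and beige fat, was chosen after its values were seen. It had too few counts in most libraries to be tested and measured 0.0664, 0.0223 and 0 CPM in wt/wt and 0, 0.428 and 5.38 CPM in fx/fx, so that fx3 and not fx2 was highest. Milk protein genes gave 5 higher and 3 lower of 8 tested, with 0 at an unadjusted edgeR p under 0.05. Lalba, which encodes alpha-lactalbumin of lactose synthesis, had the smallest p and was lower in each fx/fx library, with a log2 fold change of -2.27 (SE 1.03, edgeR adjusted p = 0.380). Of 4 keratinocyte markers tested, 2 were higher and 2 lower. Flg2 was at 0 in all libraries, and Krt5, also a marker of basal mammary cells, had a log2 fold change of 2.22 (SE 0.52, edgeR adjusted p = 0.185, DESeq2 adjusted p = 0.00923). The 7 Schwann cell markers gave 5 higher and 2 lower. At an unadjusted edgeR p under 0.05, 2 were higher, where 8.18% of all genes tested were. Ncmap, a myelin protein, had a log2 fold change of 1.32 (SE 0.42, edgeR adjusted p = 0.243).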
